A study of Homo sapiens with 24 samples.

Results

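The 38 genes described here encode the core of the spliceosome and the heterogeneous nuclear ribonucleoproteins (hnRNPs), the proteins that coat and splice messenger RNA precursors. They were chosen as a list of gene names, with earlier results of these data known. All 38 of the 38 symbols were among the 35587 gene symbols measured in each cell line. By role they are 7 genes of the Sm ring, 3 of the U1 particle, 11 of the U2 particle and the 3' splice site, 6 of the U4/U6.U5 tri-snRNP and the PRP19 complex, and 11 hnRNP genes. RNA came from MOLM14 and OCI-AML2, both established human lines of acute myeloid leukaemia, cultured for 24 h with DMSO (the solvent control), the compound AZ2 or the compound ARM165. Each of the 6 groups of line and treatment had 4 libraries. The labels name no further treatment or genetic change shared by the groups. Doses are not among the labels, so AZ2 and ARM165 are not known to be matched in dose.

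Splicing removes introns from newly made transcripts. The work is done by small nuclear ribonucleoprotein particles (snRNPs): U1 binds the 5' splice site, U2 binds the branch point, and the U4/U6.U5 tri-snRNP then joins and is rearranged into the active enzyme with the help of the PRP19 complex. The Sm proteins form a ring on the RNA of most of these particles and are needed for their assembly and stability, while hnRNP proteins bind the transcript itself and steer which exons are kept. Myeloid leukaemias often carry mutations in splicing genes such as SF3B1 and U2AF1, which is one reason why the levels of these genes are followed in leukaemia cells.

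Values are normalized estimated reads per gene symbol, poly(A)-selected, and totals ran from 37.3 M to 46.1 M per library (35.4 M to 59.0 M estimated reads before scaling). Each line was scaled on its own, gene lengths are not in the tables, and so no level is compared between lines, and between genes only for the near-identical pair U2AF1 and U2AF1L5. A change is a log2 ratio of groups on the log2(value + 1) scale with its standard error, tested with limma over all genes of a line, and a gene is called at an adjusted p under 0.05. The labels do not say whether replicates were separate cultures, so p-values measure only the spread between these libraries. Fewer cells of a kind and less RNA per cell cannot be told apart in such data, and every change is relative to the other RNAs of the library. Of the 8 myeloid genes, PTPRC, SPI1, CD33, FLT3, LYZ and CEBPA were at 1584 or more in every library of both lines. The others were low: MPO ranged from 24.2 to 148 in MOLM14 and from 4.82 to 30.5 in OCI-AML2. CSF1R ranged from 89.6 to 176 and from 70.8 to 159. Markers of T and NK cells (4 genes) summed to 359 to 589 in MOLM14 and 482 to 903 in OCI-AML2. Nearly all of that was NKG7 (359 to 586 and 480 to 903), and CD3D, CD3E and CD2 reached at most 12.7. Markers of B cells and of erythroid cells summed to 125 or less, with PF4 at 0 in every library. With ARM165 the summed level of the 8 myeloid markers moved from 81393 to 85676 down to 48401 to 56108 in MOLM14 and from 96992 to 104955 down to 54638 to 56137 in OCI-AML2. The 6 epithelial and fibroblast markers moved from 2074 to 2381 up to 3619 to 3910 in MOLM14, where KRT18 ranged from 1790 to 3311 over the libraries, and lay at 16.1 to 52.3 over all OCI-AML2 libraries. The part of these shifts in the results was not tested. Mitochondrial mRNAs took 5.07 to 5.45% of the total with DMSO, then 4.49 to 5.08% with ARM165 in MOLM14, and 7.20 to 8.11% and 5.02 to 5.91% in OCI-AML2.

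With ARM165 most of the 38 genes fell, and SF3B1 rose in both lines. Of the role groups, the Sm ring had the lowest median change, -1.28 in MOLM14 and -1.15 in OCI-AML2. In MOLM14, 35 members fell and 1, SF3B1, rose, which makes 36 of 38 called against a background of 69.5% of all 15288 genes tested (34% lower and 35.5% higher). In OCI-AML2, 24 members fell and 6 rose, which makes 30 of 38 called against 65.8% of 15377 genes (31.6% lower and 34.2% higher). The same shares of all genes apply to each role group below, and counts near them are not read as results about a group. The median change of the members was -0.59 in MOLM14 and -0.40 in OCI-AML2, beside 0.031 and 0.034 over all genes. The 38 genes together took 2.42 to 2.44% of the total in MOLM14 libraries with DMSO, then 1.74 to 1.76% with ARM165, and 2.21 to 2.27% and 1.67 to 1.90% in OCI-AML2. Genes with many reads weigh most in this share, chiefly HNRNPA2B1, HNRNPU and HNRNPA1. With AZ2 no member was called in either line, beside 0% and 0.111% of all genes. The plot of changes by gene shows all 38 with their intervals.

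**Figure D1:**
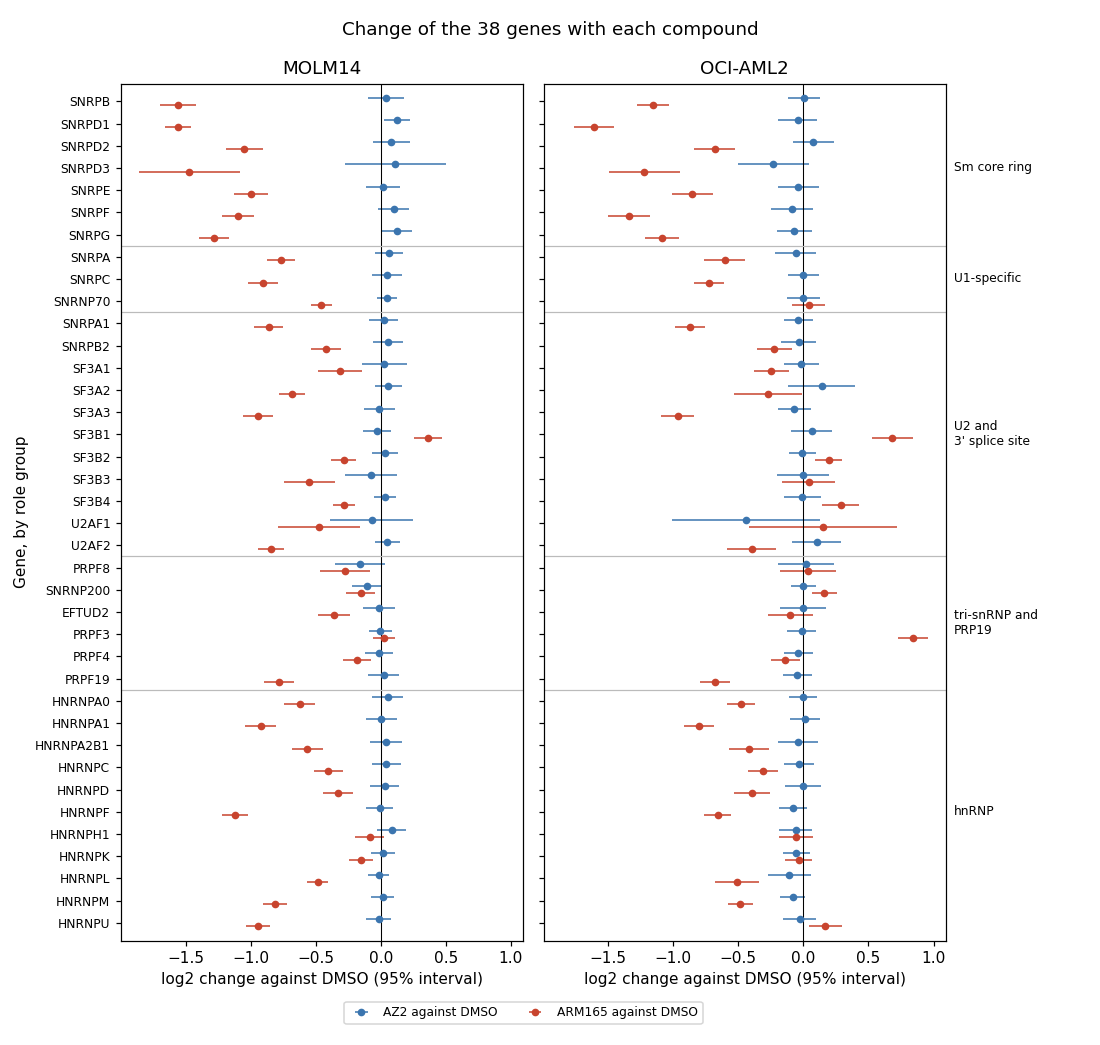
Log2 change of each of the 38 genes against DMSO (horizontal axis, with the 95% interval of the single gene) for AZ2 (blue) and ARM165 (red) in MOLM14 (left) and OCI-AML2 (right), with genes listed on the vertical axis by role group. The 7 Sm genes lie between -1.61 and -0.68 with ARM165, the AZ2 points between -0.44 and 0.14, and SF3B1 lies to the right of 0 with ARM165 in both lines.

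The Sm ring is built from SNRPB, SNRPD1, SNRPD2, SNRPD3, SNRPE, SNRPF and SNRPG, which encode the proteins that close around the snRNA. All 7 fell with ARM165 in both lines, with log2 changes of -1.56 to -0.996 in MOLM14 and -1.61 to -0.68 in OCI-AML2, and no ARM165 library reached a DMSO library for any of them. Over all members the libraries of the 2 groups were apart for 33 of 38 genes in MOLM14 (63.8% of all genes) and 27 of 38 in OCI-AML2 (60.5% of all genes). These counts and medians are under the deposited scaling. Under quantile normalization the median of the Sm genes was -1.25 and -1.10, and with TMM factors (trimmed mean of M values) -1.32 and -1.17, with 7 of 7 lower each time.

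SNRPD1 had the largest fall of the ring in both lines. In MOLM14 it stood at 7027, 6929, 6846 and 6804 with DMSO (6902 ± 98.2, SD, n = 4), at 7936, 7167, 7549 and 7499.8 with AZ2, and at 2199, 2299, 2529.6 and 2346 with ARM165 (2343 ± 139), a log2 change of -1.56 ± 0.047 (adjusted p = 4.28e-13). The OCI-AML2 values were 9288, 11496, 9951 and 8757 with DMSO (9873 ± 1187), 9141, 9397, 9781 and 9792 with AZ2, and 3000.0, 3294, 3303 and 3308 with ARM165 (3226 ± 151), a log2 change of -1.61 ± 0.071 (adjusted p = 2.24e-11). The ARM165 libraries lay far under all others in each line, at ratios to the DMSO level of 0.339 and 0.328. At the other end of the ring were SNRPE in MOLM14 and SNRPD2 in OCI-AML2. SNRPE stood at 11183, 10209, 10898 and 10584 with DMSO, 11092, 10279.7, 11135 and 10843 with AZ2 and 5159.7, 4824, 5455 and 6135 with ARM165 in MOLM14, a log2 change of -0.996 ± 0.061 (adjusted p = 9.01e-10). In OCI-AML2 its change was -0.85 ± 0.074. SNRPD2 stood at 15688, 16644, 16724 and 15487 with DMSO, 15649, 15717, 17284 and 19619.9 with AZ2 and 9079, 10956, 10531 and 9738 with ARM165 in OCI-AML2, a log2 change of -0.68 ± 0.075 (adjusted p = 7.53e-07), and it changed by -1.05 ± 0.065 in MOLM14, from 9402 ± 245 to 4562 ± 431. Even these smallest falls of the ring left the DMSO and ARM165 libraries without overlap.

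SNRPF was the 1 member of the 38 called as falling further in OCI-AML2, and it is described for that, chosen after its values were seen. It stood at 4804, 4407, 4695 and 4541 with DMSO, then 1989, 2035, 2214 and 2390.1 with ARM165 in MOLM14, and at 4999, 6256, 5566 and 5078 with DMSO, then 2057, 2275, 2018 and 2277 with ARM165 in OCI-AML2, for changes of -1.10 ± 0.057 and -1.34 ± 0.075. The difference of the changes (OCI-AML2 minus MOLM14, 1 limma fit of all 24 libraries) was -0.24 ± 0.10 with an adjusted p of 0.0474, and it passed in only 17 of 34 alternative fits, with an adjusted p of up to 0.119 (without OCI-AML2 DMSO replicate 2). SNRPG changed by -1.28 ± 0.053 and -1.08 ± 0.062, and SNRPD3 by -1.47 ± 0.18 and -1.22 ± 0.13, the widest errors of the ring. SNRPD3 shares 26.5% of its 31-base words with other symbols, counted over GENCODE 29 transcripts, and 11.3% with GUCD1 on the opposite strand. Whether the quantification used strand is not given. Of the 38 members, 15 share over 10% in this way. They include SF3B4 (18.4%), SNRPB (18.2%), HNRNPK (17.7%), SF3A3 (15.3%) and SF3A2 (14.9%).

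SNRPB encodes the SmB and SmB' proteins and has a close relative, SNRPN, whose protein SmN can take the same place in the ring. It is described although the naming rule did not select it, after its values were seen. SNRPB fell from 15114, 14419.5, 14828 and 13887 to 4447, 4574, 5512 and 5342 in MOLM14, a log2 change of -1.56 ± 0.064 (adjusted p = 9.71e-12), and from 18793, 17753, 18716 and 17814 to 8103, 8639, 8111 and 8003 in OCI-AML2, a log2 change of -1.15 ± 0.058 (adjusted p = 8.71e-11). SNRPN moved in opposite directions in the lines. It rose from 6151, 5857, 6469.6 and 6379 to 7531, 7095, 7932 and 8369 in MOLM14 (change 0.31 ± 0.058, adjusted p = 0.000176) and fell from 6747, 7437, 7658 and 6987 to 4530.2, 4879.8, 4696 and 4958 in OCI-AML2 (-0.60 ± 0.057, adjusted p = 1.58e-07). SNRPB alone fell further in MOLM14 (difference of the changes 0.40 ± 0.089, adjusted p = 0.000703). With pseudogene copies alone summed in, the changes were -1.56 and -1.15 and the difference 0.40 (adjusted p = 0.000702). That sum was almost SNRPB alone (difference 0.40331 beside 0.40335), so it cannot tell whether shared reads matter. It left out AL049650.1, which shares 17.4% of the 31-base words of SNRPB. With the separate genes SNRPN and SNURF summed in as well, the change was -0.66 in MOLM14 and -0.96 in OCI-AML2. The difference of that sum was -0.30 (adjusted p = 0.00289), which includes the opposite movement of SNRPN.

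A pair of Sm promoters are shown because the ring's genes moved together, and both are from RefSeq on GRCh38.p14, as the 250 bases before the outermost annotated start, read on the gene's strand. SNRPB lies at chr20:2470790-2471039 on the minus strand and SNRPF at chr12:95858702-95858951 on the plus strand. Capitals mark the match to an ETS-type motif (CCGGAAG) in SNRPB, 41 bases before the start, and the CCAAT boxes (CCAAT) in SNRPF, 75 and 50 bases before it.
SNRPB: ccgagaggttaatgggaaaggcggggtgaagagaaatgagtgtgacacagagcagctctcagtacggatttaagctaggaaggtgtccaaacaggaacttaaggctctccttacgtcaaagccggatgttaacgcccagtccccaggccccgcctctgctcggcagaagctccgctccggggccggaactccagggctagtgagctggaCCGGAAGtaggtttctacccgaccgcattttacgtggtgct
SNRPF: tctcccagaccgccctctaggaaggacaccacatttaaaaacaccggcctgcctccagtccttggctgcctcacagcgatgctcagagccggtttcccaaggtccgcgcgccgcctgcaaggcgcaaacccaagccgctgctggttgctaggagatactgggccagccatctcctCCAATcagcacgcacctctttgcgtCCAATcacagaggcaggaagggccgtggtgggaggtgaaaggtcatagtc
In all, 5 motifs were searched on both strands in these 250-base windows, which were found for 34 of the 38 members (not SNRPD1, SF3B3, PRPF3 and HNRNPA1). CCGGAAG was in 16 of the 34 members (47.1%), beside 8.78% of 27305 promoters and 15.8% of the 10254 promoters of genes tested in both lines. By group it was in 4 of 6 Sm genes, 1 of 3 U1 genes, 8 of 10 genes of the U2 group, 1 of 5 of the tri-snRNP group and 2 of 10 hnRNP genes. CCAAT was in 12 members (35.3%) beside 35.2% of the tested genes' promoters, CACGTG (the E-box) in 4 (11.8% beside 8.82%), ATGGCGG (YY1) in 2 (5.88% beside 3.83%) and GCATGCG (NRF1) in 2 (5.88% beside 5.73%). A match is a string of letters and says nothing of whether a factor binds there.

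The U1-specific genes encode the proteins that distinguish the U1 particle: SNRNP70, SNRPA and SNRPC. SNRPC and SNRPA fell in both lines, whereas SNRNP70 fell in MOLM14 alone. SNRPC stood at 8518, 7892, 8375 and 8002 with DMSO, 8708, 8123, 8794 and 8198 with AZ2 and 4196, 4053, 4427 and 4829.8 with ARM165 in MOLM14, a log2 change of -0.91 ± 0.054 (adjusted p = 5.23e-10). OCI-AML2 libraries held 11812, 12356, 12706 and 12369.7 with DMSO, 11248, 12124, 12666 and 13296 with AZ2 and 7025, 7684, 7551 and 7589 with ARM165, a log2 change of -0.72 ± 0.055 (adjusted p = 1.03e-08). The groups did not overlap in either line, and SNRPA changed by -0.77 ± 0.05 and -0.60 ± 0.074.

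SNRNP70 stood at 16923, 15874, 16547 and 16057 with DMSO, 16948, 16518, 17331 and 16814 with AZ2 and 12001, 11779, 12378 and 11484 with ARM165 in MOLM14, a log2 change of -0.46 ± 0.037 (adjusted p = 2.42e-08). In OCI-AML2 the values were 21365, 19737, 24135 and 22757 with DMSO, 21853, 20583, 22945 and 22383 with AZ2 and 22352, 23020.3, 22853 and 22058 with ARM165. All 4 MOLM14 libraries with ARM165 were under every DMSO library, while in OCI-AML2 the ARM165 libraries lay inside the DMSO range, with a change of 0.041 ± 0.059 (95% interval -0.085 to 0.17, adjusted p = 0.564). The difference between the lines was 0.50 ± 0.068 (adjusted p = 2.21e-06).

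The U2 group holds the proteins that read the branch point and the 3' splice site: SNRPA1 and SNRPB2 of the U2 particle, the SF3A and SF3B subunits that clamp U2 onto the branch point, and U2AF1 and U2AF2, which bind the 3' splice site and the polypyrimidine tract before it. In MOLM14, 10 of the 11 fell and SF3B1 rose. In OCI-AML2, 5 fell (SNRPA1, SNRPB2, SF3A1, SF3A3 and U2AF2), 3 rose (SF3B1, SF3B2 and SF3B4) and 3 were not called. Over all genes of that line 31.6% were lower and 34.2% higher. The group median was -0.48 in MOLM14 and -0.22 in OCI-AML2, and -0.46 and -0.15 under quantile normalization.

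SF3B1, the largest SF3B subunit and the one that contacts the branch point, was the 1 member that rose in both lines. It stood at 5237, 5077, 5421 and 5567 with DMSO, 5243, 5562, 4997 and 5057 with AZ2 and 6919.9, 7272, 6397 and 6828 with ARM165 in MOLM14, a log2 change of 0.36 ± 0.049 (adjusted p = 8.11e-06). In OCI-AML2 it stood at 5362, 6385, 5189.5 and 5214 with DMSO, 5502, 5694, 5541 and 6388 with AZ2 and 8520.0, 8696, 8568 and 9735 with ARM165, a log2 change of 0.68 ± 0.073 (adjusted p = 6e-07). Every ARM165 library was above every DMSO library, and the rise was larger in OCI-AML2 (difference 0.32 ± 0.09, adjusted p = 0.00584). Its promoter is shown as that of the gene that rose in both lines. It lies at chr2:197435094-197435343 on the minus strand (RefSeq, GRCh38.p14), the 250 bases before the start, and capitals mark a palindromic E-box 43 bases before the start.
SF3B1: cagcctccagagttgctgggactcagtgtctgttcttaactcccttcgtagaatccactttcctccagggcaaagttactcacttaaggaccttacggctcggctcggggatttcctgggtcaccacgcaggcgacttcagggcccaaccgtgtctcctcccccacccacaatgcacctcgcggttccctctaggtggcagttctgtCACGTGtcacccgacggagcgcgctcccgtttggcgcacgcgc

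SF3A3, which joins the SF3A complex to the U2 particle, had the largest fall of the group in both lines. It stood at 5505, 4806, 5227 and 4859.6 with DMSO, 5383, 5043, 5135 and 4685 with AZ2 and 2612, 2528, 2756 and 2694 with ARM165 in MOLM14, a log2 change of -0.94 ± 0.055 (adjusted p = 4.31e-10). The OCI-AML2 values were 3395, 3589.8, 3446 and 3163 with DMSO, 3031, 3342, 3241 and 3320.4 with AZ2 and 1654, 1748, 1686 and 1874 with ARM165, a log2 change of -0.97 ± 0.059 (adjusted p = 8.93e-10). The changes differed between the lines by -0.021 (95% interval -0.18 to 0.14). SNRPA1 likewise changed by -0.86 ± 0.052 and -0.87 ± 0.053. The partner subunits of SF3A3 changed too, SF3A1 by -0.31 ± 0.08 and -0.25 ± 0.063, and SF3A2 by -0.68 ± 0.047 in MOLM14. In OCI-AML2 SF3A2 was at -0.27 ± 0.12 and did not pass (adjusted p = 0.0601), where DMSO replicate 2 was at 1895 beside 2789 to 2995 in the other DMSO libraries, and without that library its change was -0.42 (adjusted p = 0.000262). With all libraries kept it passed under quantile normalization (-0.32, adjusted p = 0.0395).

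SF3B2 and SF3B4, partner subunits of SF3B1, moved in opposite directions in the lines. SF3B2 stood at 5998, 6024, 6119 and 6068 with DMSO, 6309, 5969.6, 6449.8 and 6001 with AZ2 and 4832, 4615, 5284 and 5149 with ARM165 in MOLM14, a log2 change of -0.29 ± 0.046 (adjusted p = 4.88e-05), and at 6422, 6161, 7034 and 6621 with DMSO, 6200.3, 6461, 6640.3 and 6759.9 with AZ2 and 7492, 7421, 7569.6 and 7495 with ARM165 in OCI-AML2, a log2 change of 0.19 ± 0.049 (adjusted p = 0.00259). SF3B4 stood at 8742, 8269, 8403 and 8356 with DMSO, 8393, 8635, 9089.8 and 8441 with AZ2 and 6892, 6791, 6914 and 7142 with ARM165 in MOLM14, a log2 change of -0.28 ± 0.038 (adjusted p = 7.26e-06), and at 5348, 4433, 5511 and 5148 with DMSO, 4947, 4918, 4947 and 5457 with AZ2 and 5989, 6622, 6177 and 6112 with ARM165 in OCI-AML2, a log2 change of 0.29 ± 0.067 (adjusted p = 0.00125). The groups were apart for both genes in both lines, all below DMSO in MOLM14 and all above it in OCI-AML2. The differences between the lines were 0.48 ± 0.064 (adjusted p = 1.64e-06) and 0.57 ± 0.076 (adjusted p = 1.53e-06). SF3B3 fell in MOLM14 (-0.55 ± 0.092) and had a change of 0.039 ± 0.094 in OCI-AML2 (adjusted p = 0.734), where ARM165 replicate 4 stood at 9722 beside 6743 to 7773 in the other ARM165 libraries. U2AF2 changed by -0.84 ± 0.045 and -0.40 ± 0.089, and SNRPB2 by -0.42 ± 0.055 and -0.22 ± 0.063 (-0.26 in MOLM14 under quantile normalization).

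U2AF1 cannot be read by its own symbol, and it is described for that reason, chosen after its values were seen. Of its 31-base words 96.3% are also in U2AF1L5, an almost identical gene copy annotated on the same chromosome, and U2AF1 was assigned 21.1 to 49.6% of the pair's reads in MOLM14 and 6.55 to 21.1% in OCI-AML2. U2AF1 stood at 3232, 5302, 3222 and 3023 with DMSO, then 2574, 2832, 2166 and 2827 with ARM165 in MOLM14, a log2 change of -0.48 ± 0.15 (adjusted p = 0.00986). In MOLM14 DMSO replicate 2, where U2AF1 was highest, U2AF1L5 was at 5392 beside 7796 to 8001 in the other DMSO libraries, and U2AF1 took 49.6% of the pair there and as little as 27.9% in the others. Without that library the change of U2AF1 alone was -0.29 (adjusted p = 0.0177). In OCI-AML2 U2AF1 alone was at 0.15 ± 0.27, and its difference between the lines passed only without DMSO replicate 2 of OCI-AML2 (0.84, adjusted p = 0.0368). The sum of the pair was 11158, 10694, 11223 and 10819 with DMSO, then 9999, 9569, 10264 and 10608 with ARM165, a change of -0.12 (adjusted p = 0.0379), and with U2AF1L4, a separate relative that changed by 1.36 ± 0.089, added as well it was 0.010 (adjusted p = 0.855). In OCI-AML2 the pair summed to 17090.3, 18473, 18570.2 and 17117 with DMSO, then 17617, 17476, 17788 and 18901 with ARM165, a change of 0.011 (adjusted p = 0.867). Over the MOLM14 libraries with DMSO the SD of the sum was 257, beside 1076 for U2AF1 and 1261 for U2AF1L5, whereas in OCI-AML2 it was 819 beside 883 and 811. The plot of both genes by library shows the split.

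**Figure D2:**
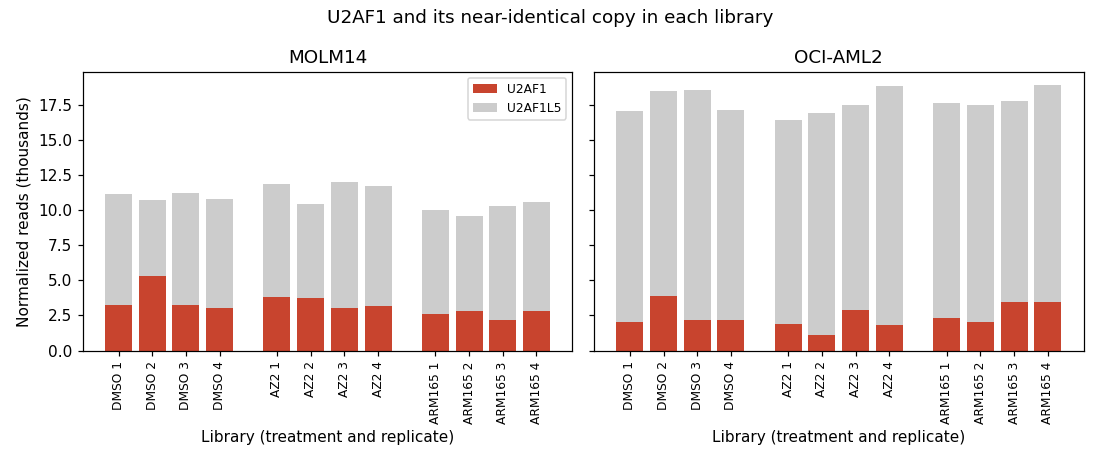
Normalized reads (vertical axis) of U2AF1 (red) and U2AF1L5 (grey) stacked for each of the 24 libraries (horizontal axis, by treatment and replicate) in MOLM14 (left) and OCI-AML2 (right). The split between the copies varies between replicates, with DMSO replicate 2 of MOLM14 at 49.6% U2AF1, and the whole bar lies between 9569 and 11988 in MOLM14 and between 16439 and 18901 in OCI-AML2.

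The tri-snRNP and PRP19 group holds PRPF8, the scaffold of the active site, the helicase SNRNP200 and the GTPase EFTUD2 (all of U5), PRPF3 and PRPF4 (of U4/U6), and the ubiquitin ligase PRPF19. In MOLM14, 5 of 6 fell and PRPF3 was not called. In OCI-AML2 PRPF19 and PRPF4 fell, PRPF3 and SNRNP200 rose, and PRPF8 and EFTUD2 were not called. Over all genes of that line 31.6% were lower and 34.2% higher, so these counts are near the background. The group median was -0.23 in MOLM14 and -0.034 in OCI-AML2.

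PRPF19 had the largest fall of the group in both lines. It stood at 5840.2, 5521, 5821 and 5628 with DMSO, 5895, 5619, 6155 and 5503 with AZ2 and 3121, 3101, 3618 and 3457 with ARM165 in MOLM14, a log2 change of -0.78 ± 0.055 (adjusted p = 4.01e-09). OCI-AML2 libraries held 4335, 4475, 4309 and 4074 with DMSO, 3937, 4114, 4116 and 4497 with AZ2 and 2569, 2743, 2731 and 2694 with ARM165, a log2 change of -0.68 ± 0.053 (adjusted p = 1.64e-08). The groups did not overlap in either line, and the changes differed by 0.10 between the lines (95% interval -0.051 to 0.26).

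PRPF3 separated the lines. In MOLM14 it stood at 4280.4, 3999, 3983 and 3958 with DMSO, 3981, 4041, 3982 and 4179 with AZ2 and 4288, 4081, 4045 and 4079.9 with ARM165, a change of 0.024 ± 0.041 (95% interval -0.063 to 0.11, adjusted p = 0.61), whose sign turned with TMM factors (-0.015). In OCI-AML2 it stood at 3057, 3163, 2921 and 2816 with DMSO, 2901, 3108, 3024 and 2820.5 with AZ2 and 5391, 5164, 5369 and 5512 with ARM165, a log2 change of 0.84 ± 0.053 (adjusted p = 1.1e-09). The MOLM14 groups overlapped, whereas all OCI-AML2 libraries with ARM165 were above every other library of the line. The difference between the lines was 0.82 ± 0.061 (adjusted p = 1.69e-10).

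Among the U5 genes, SNRNP200 changed by -0.15 ± 0.052 in MOLM14 (adjusted p = 0.0165) and changed by 0.16 ± 0.045 in OCI-AML2 (adjusted p = 0.00508). Its MOLM14 call was lost under quantile normalization, where the change was 0.0084 (adjusted p = 0.86), and without ARM165 replicate 1 (-0.13, adjusted p = 0.0512) or ARM165 replicate 2 (-0.12, adjusted p = 0.0566). EFTUD2 changed by -0.36 ± 0.058 in MOLM14, and PRPF8 by -0.28 ± 0.09. In OCI-AML2 EFTUD2 was at -0.10 (95% interval -0.28 to 0.072) and PRPF8 at 0.033 (-0.18 to 0.25), both short of the threshold. PRPF4 changed by -0.18 ± 0.051 in MOLM14 (adjusted p = 0.00456) and by -0.14 ± 0.052 in OCI-AML2 (adjusted p = 0.0279). That OCI-AML2 call was close to the threshold: leaving out DMSO replicate 1 or 2, or ARM165 replicate 2, 3 or 4, gave adjusted p-values of 0.0578, 0.0785, 0.0514, 0.0584 and 0.0681, with changes of -0.14 to -0.11.

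The hnRNP genes encode proteins that package nascent transcripts and bind short elements in exons and introns. In MOLM14, 10 of 11 fell and HNRNPH1 was not called. In OCI-AML2, 8 of 11 fell, HNRNPU rose, and HNRNPH1 and HNRNPK were not called. The group median was -0.56 in MOLM14 and -0.42 in OCI-AML2. Under quantile normalization the median in MOLM14 was -0.33 with 8 lower and 1 higher: HNRNPK turned from -0.15 (adjusted p = 0.00553) to 0.20 (adjusted p = 2.29e-06), and HNRNPD went from -0.33 (adjusted p = 4.32e-05) to 0.0021 (adjusted p = 0.956). In OCI-AML2 HNRNPK was at -0.036 ± 0.049 (adjusted p = 0.545).

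HNRNPF, which binds runs of G in transcripts, had the largest fall of the group in MOLM14. It stood at 72788, 71243, 75448 and 72340.2 with DMSO, 76433, 69349, 73083 and 71246 with AZ2 and 33370.5, 31265, 33575 and 36054 with ARM165, a log2 change of -1.12 ± 0.048 (adjusted p = 1.34e-11). The OCI-AML2 values were 30339.9, 29779, 29951 and 28117 with DMSO, 27930.4, 29086, 26441 and 28310.3 with AZ2 and 18799, 17557, 18681 and 19835 with ARM165, a log2 change of -0.66 ± 0.049 (adjusted p = 9.65e-09). The groups were apart in both lines, and the fall was larger in MOLM14 (difference 0.46 ± 0.066, adjusted p = 4.14e-06). Under quantile normalization the MOLM14 change was -0.74 and the difference 0.20 (adjusted p = 0.000834). Its relative HNRNPH1, which binds the same kind of element, did not pass in either line. HNRNPH1 stood at 20381, 21130.2, 19785 and 21660.0 with DMSO, 22160.1, 22077, 20518 and 23139 with AZ2 and 20791, 20482, 19121 and 17934 with ARM165 in MOLM14, a change of -0.084 ± 0.053 (adjusted p = 0.168), and its OCI-AML2 change was -0.057 ± 0.06 (adjusted p = 0.422). The groups overlapped in both lines, and the sign of HNRNPH1 turned under quantile normalization (0.17 and 0.040).

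HNRNPA1, an abundant protein that favours exon skipping, had the largest fall of the group in OCI-AML2. It stood at 86974, 91485, 90806 and 84099 with DMSO, 84468, 90792, 90995 and 90257 with AZ2 and 49972, 46964, 51772 and 54469 with ARM165, a log2 change of -0.80 ± 0.054 (adjusted p = 2.87e-09). In MOLM14 it went from 134295 ± 4337 to 70904 ± 4918, a log2 change of -0.92 ± 0.055 (adjusted p = 5.93e-10). The ARM165 libraries were all far below the others in both lines. HNRNPA1 shares 25.0% of its 31-base words with other symbols, mostly processed pseudogenes, and with its pseudogene copies summed in, its change was -0.92 in MOLM14 and -0.80 in OCI-AML2. Of the related genes, HNRNPA0 changed by -0.62 ± 0.056 and -0.48 ± 0.05, and HNRNPA2B1 by -0.56 ± 0.056 and -0.42 ± 0.073. HNRNPM, which binds GU-rich elements, changed by -0.81 ± 0.042 and -0.48 ± 0.047, and HNRNPL, which binds CA repeats, by -0.49 ± 0.038 and -0.51 ± 0.078. HNRNPC, which binds runs of U, changed by -0.40 ± 0.052 and -0.31 ± 0.054, and HNRNPD, which binds AU-rich elements, by -0.39 ± 0.064 in OCI-AML2. Under quantile normalization HNRNPC was at -0.079 (adjusted p = 0.0232) in MOLM14 and -0.17 (adjusted p = 0.00272) in OCI-AML2, and the MOLM14 changes of HNRNPA1 and HNRNPA2B1 were -0.54 and -0.26.

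HNRNPU, a scaffold-attachment protein that binds both DNA and RNA, showed the largest difference between the lines of all 38 genes. It stood at 175576, 173815, 177759 and 171541 with DMSO, 180053, 166330.0, 172965 and 171502 with AZ2 and 88056, 88779.8, 90988 and 95527 with ARM165 in MOLM14, a log2 change of -0.94 ± 0.044 (adjusted p = 3.69e-11). OCI-AML2 libraries held 108073, 109350.0, 106719 and 101411 with DMSO, 101953, 107539, 103623 and 103729 with AZ2 and 124680.0, 105826, 119411 and 129547 with ARM165, a log2 change of 0.17 ± 0.06 (adjusted p = 0.0219). The MOLM14 libraries with ARM165 lay at a ratio to DMSO of 0.52 without overlap, whereas in OCI-AML2 3 of 4 ARM165 libraries were above all DMSO libraries and the groups overlapped. The difference between the lines was 1.11 ± 0.071 (95% interval 0.97 to 1.26, adjusted p = 1.18e-11) and passed in 34 of 34 alternative fits (0.82 to 1.17). Under quantile normalization the MOLM14 change was -0.61. The OCI-AML2 rise by itself passed in 18 of 23 alternatives. It did not without a filter on low values (adjusted p = 0.0648), with copies and the relatives HNRNPUL1 and HNRNPUL2 summed in (0.097, adjusted p = 0.152), or without DMSO replicate 4 (0.15, adjusted p = 0.0638), ARM165 replicate 1 (0.15, adjusted p = 0.0632) or ARM165 replicate 4 (0.13, adjusted p = 0.0780).

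COX20 lies on the opposite strand and shares 14.7% of the 31-base words of HNRNPU. COX20 changed by -0.52 ± 0.078 (adjusted p = 2.36e-05) in MOLM14 and by -0.30 ± 0.068 (adjusted p = 0.00103) in OCI-AML2, from 4579.5 ± 341 to 3210.3 ± 372 and from 15483 ± 1752 to 12529 ± 653. COX20 thus moved down in both lines, and its part in the HNRNPU result was not tested. The promoter of HNRNPU is shown as that of the gene whose change differed most, at chr1:244864544-244864793 on the minus strand (RefSeq, GRCh38.p14), the 250 bases before the start. Capitals mark a pair of overlapping CCAAT matches, 1 on each strand, starting 186 and 183 bases before the start.
HNRNPU: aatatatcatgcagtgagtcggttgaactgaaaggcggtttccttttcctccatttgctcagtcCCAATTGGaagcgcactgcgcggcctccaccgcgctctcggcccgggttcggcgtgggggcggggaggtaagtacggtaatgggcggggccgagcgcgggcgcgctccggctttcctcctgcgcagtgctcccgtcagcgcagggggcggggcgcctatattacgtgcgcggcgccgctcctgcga

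**Figure D3:**
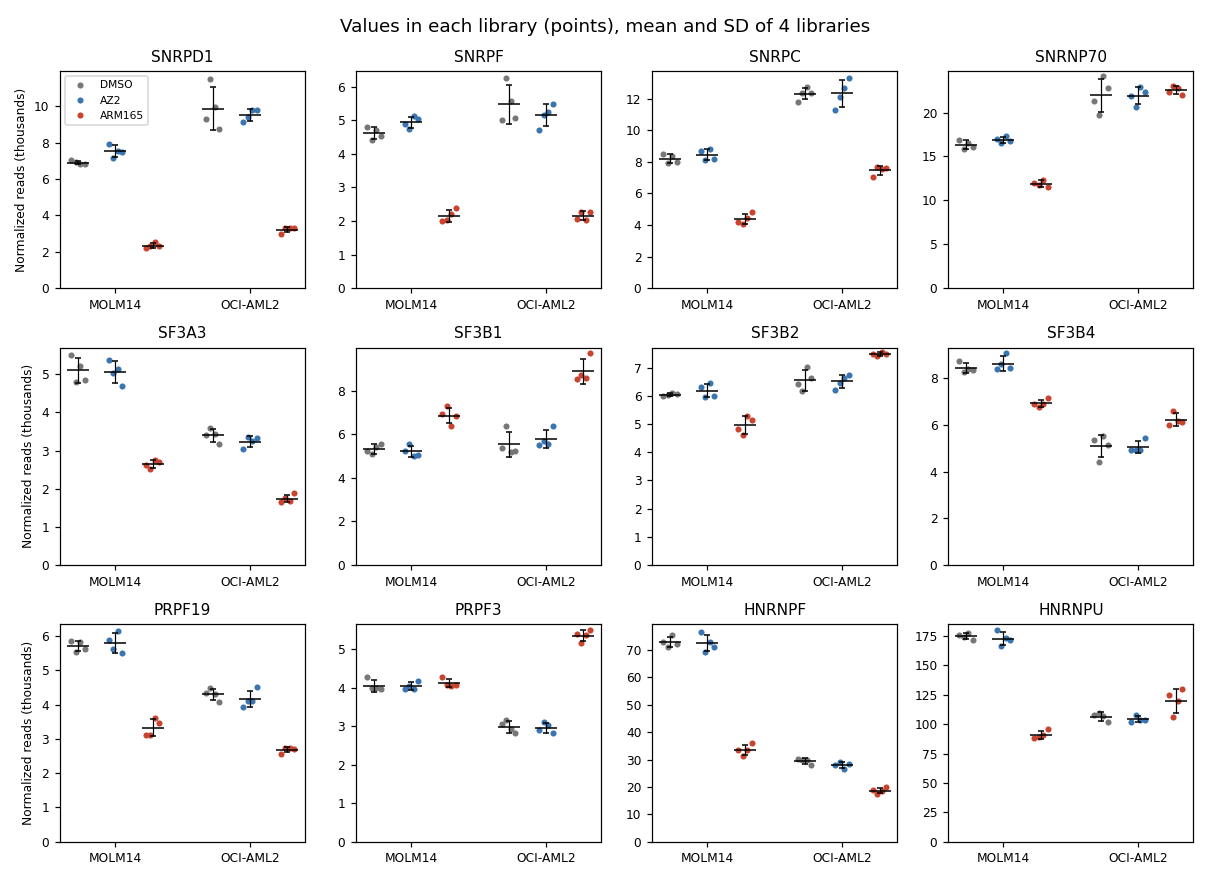
Normalized reads (vertical axis from 0) of 12 of the genes in each library (points), with the mean and SD of 4 libraries (black), for DMSO (grey), AZ2 (blue) and ARM165 (red) in MOLM14 and OCI-AML2, scaled separately. SNRPD1, SNRPF, SNRPC, SF3A3, PRPF19 and HNRNPF fall with ARM165 in both lines, SF3B1 rises in both, and SNRNP70, SF3B2, SF3B4, PRPF3 and HNRNPU behave differently in the lines.

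Both lines were set side by side to ask where the response to ARM165 differed. Of the 38 members, 24 fell in both lines, SF3B1 rose in both, and 4 (SF3B2, SF3B4, SNRNP200 and HNRNPU) fell in MOLM14 and rose in OCI-AML2. A further 7 fell in MOLM14 and were not called in OCI-AML2, PRPF3 rose in OCI-AML2 alone, and HNRNPH1 was called in neither. The change was the more negative in MOLM14 for 32 of 38 members under the deposited scaling, beside 53.4% of all 14287 genes. It was so for 25 of 38 under quantile normalization and 35 of 38 with TMM factors. The share of all genes was not counted under these other scalings. The median difference over all genes moved with the scaling, from 0.044 as deposited to 0.028 (quantile) and 0.071 (TMM). Tested directly, the change differed for 16 of 38 members, beside 42.4% of 14287 genes tested (24.3% higher and 18.1% lower in OCI-AML2), so the share of members that differed is close to the background. Of the 16, 15 had the higher change in OCI-AML2 and SNRPF the lower one. Under quantile normalization the split was 15 higher and 3 lower, beside 3318 higher and 2889 lower of 14287 genes. HNRNPK (-0.20, adjusted p = 0.000292) and HNRNPD (-0.32, adjusted p = 0.000163) were added on the lower side. On the higher side EFTUD2 (adjusted p = 0.0934) and SF3A2 (0.0990) lost the call, and SNRPC (0.00479) and SNRPG (0.0151) gained it. With TMM factors the split was 22 and 1, beside 3830 higher and 2490 lower of 14272 genes.

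By role, the change differed for 3 of 7 Sm genes, 1 of 3 U1 genes, 6 of 11 genes of the U2 group, 3 of 6 of the tri-snRNP group and 3 of 11 hnRNP genes. The share over all genes tested was 42.4%, and such small counts around it are not read as results about a group. The 6 of the U2 group were SF3A2, SF3B1, SF3B2, SF3B3, SF3B4 and U2AF2, so all 4 SF3B genes of the 38 were among them. SF3B3 differed by 0.59 ± 0.14 (adjusted p = 0.00169), U2AF2 by 0.45 ± 0.10, SF3A2 by 0.41 ± 0.14 and HNRNPM by 0.33 ± 0.058. SF3A2 lost the call under quantile normalization (adjusted p = 0.0990), and without OCI-AML2 DMSO replicate 2 its difference was 0.26 (adjusted p = 0.0255). EFTUD2 differed by 0.26 ± 0.10 (adjusted p = 0.0454) and kept the call in 19 of 34 alternatives, the highest adjusted p being 0.0948 (without OCI-AML2 DMSO replicate 4). Across the 38 genes the changes of the lines had a Pearson r of 0.874 and a Spearman rho of 0.842, beside 0.717 and 0.711 across all 14287 genes, as a description only since genes of 1 set of libraries are not independent. Outside the 16, SNRPC passed in 10 and SNRPG and SNRPB2 in 6 and 4 of 34 alternatives. The plot of one line against the other shows these changes under the deposited scaling.

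**Figure D4:**
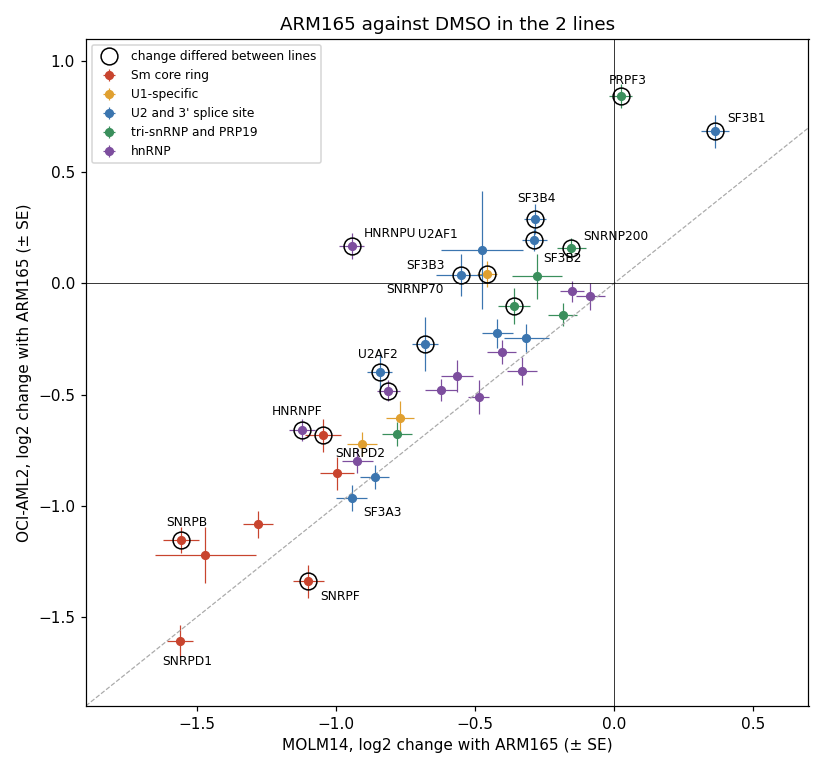
Log2 change with ARM165 against DMSO in MOLM14 (horizontal axis) and OCI-AML2 (vertical axis), each ± SE, for the 38 genes coloured by role group, with the diagonal of equal change dashed and circles around the 16 genes whose change differed between the lines. Most points lie above the diagonal, HNRNPU and PRPF3 farthest from it, and SNRPF is the 1 circled gene below it.

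No member passed the test with AZ2. By limma, 0 of 38 members were called in MOLM14, beside 0% of all genes, and 2 (SNRPD1 and SNRPG, 5.26%) had an unadjusted p under 0.05, beside 5.88% of all genes. In OCI-AML2, 0 of 38 were called beside 0.111% of all genes (0.0065% higher), no library groups were apart (2.67% of all genes), and 0 members had an unadjusted p under 0.05, beside 4.77% of all genes. The changes ran from -0.16 (PRPF8) to 0.13 (SNRPD1) in MOLM14 and from -0.44 (U2AF1) to 0.14 (SF3A2) in OCI-AML2. SNRPD1 in MOLM14 was the 1 member whose AZ2 libraries lay apart from DMSO, all above them, with a change of 0.13 ± 0.047 (95% interval 0.026 to 0.23, adjusted p = 0.719), and 4.43% of all genes were apart in this way. The 7 Sm genes had a median of 0.099 in MOLM14 and -0.044 in OCI-AML2. Among the genes described above, the AZ2 intervals were -0.13 to 0.11 for SF3A3, -0.11 to 0.093 for HNRNPF and -0.11 to 0.077 for HNRNPU in MOLM14, and -0.12 to 0.10 for PRPF3 in OCI-AML2. U2AF1 in OCI-AML2 had the widest interval (-1.01 to 0.13), with the sum of U2AF1 and U2AF1L5 at 16439 to 18858 beside 17090.3 to 18570.2 with DMSO. No member's AZ2 change was called as different between the lines, beside 0.028% of all genes, and 1 (2.63%) had an unadjusted p under 0.05, beside 5.22%.

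ARM165 was also set directly against AZ2, the 1 pair of compounds of the study, in each line. In MOLM14, 34 members were lower and 1 (SF3B1) higher with ARM165, beside 70.1% of all genes called, and the libraries were apart for 33 (63.6% of all genes). In OCI-AML2, 24 were lower and 6 higher (SF3B1, SF3B2, SF3B4, SNRNP200, PRPF3 and HNRNPU), beside 65.8%, and the libraries were apart for 28 (61.4% of all genes). The ARM165 libraries are those used against DMSO, so this is no second measurement of them. SNRPD1 differed by -1.69 ± 0.047 and -1.56 ± 0.071, and HNRNPU differed by -0.93 ± 0.044 and 0.20 ± 0.06. In MOLM14, PRPF3, SNRNP200 and PRPF8 were not called, at 0.027, -0.046 and -0.12. Since the doses are not known to match, these are differences between the cultures as treated.

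A further 97 genes of the pathway, in 7 lists, were followed beside the members, and they did not move as 1 block. With AZ2 none of the 97 was called in either line, and 3 and 1 (3.09% and 1.03%) had an unadjusted p under 0.05, below the 5.88% and 4.77% of all genes. With ARM165, 49 fell and 29 rose in MOLM14, beside 34% lower and 35.5% higher over all genes. In OCI-AML2, 32 fell and 42 rose, beside 31.6% lower and 34.2% higher over all genes. The medians were -0.21 and 0.11. The same shares of all genes apply to each list below, and counts near them are not read as results about a list.

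Most assembly factors fell in MOLM14, beside 34% of all genes. The snRNP assembly list holds the SMN complex and the PRMT5 methylosome, which load the Sm ring onto snRNA, and 13 of its 16 genes fell and 2 rose in MOLM14, while 8 fell and 5 rose in OCI-AML2. In MOLM14 the largest changes were in GEMIN4 (-1.99 ± 0.084), GEMIN5 (-1.70 ± 0.078) and GEMIN6 (-1.59 ± 0.091), all of the SMN complex. In OCI-AML2 they were in GEMIN4 (-1.68 ± 0.088), CLNS1A (-1.46 ± 0.065), which hands Sm proteins to that complex, and SMN2 (1.59 ± 0.52), whose reads cannot be told from those of its near-identical copy SMN1. The LSm ring, the counterpart of the Sm ring on U6 RNA and in mRNA decay, had 5 of 8 lower and 2 higher in MOLM14 and 5 lower and 1 higher in OCI-AML2, led by LSM7 (-1.04 and -1.05) and LSM4 (-0.75 and -0.93).

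More genes of the later steps rose than fell, beside 35.5% of all genes higher in MOLM14 and 34.2% in OCI-AML2. Of 22 PRP19-associated and catalytic-step genes, 12 rose and 2 fell in MOLM14, and 19 rose and 1 fell in OCI-AML2, with medians of 0.16 and 0.49, and 0.17 and 0.46 under quantile normalization. SLU7, needed for the second step, changed by 0.79 ± 0.10 and 1.23 ± 0.079. BUD31 (0.80 ± 0.066) and the helicase DHX16 (0.71 ± 0.076) rose most in MOLM14 beside it, and SYF2 (1.03 ± 0.072) and CRNKL1 (0.80 ± 0.083) in OCI-AML2. PRPF19 itself, among the 38, fell in both lines as given above.

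The remaining lists were mixed, and several of their counts lay near the shares of all genes given above. Of 15 other U1 and U2 proteins, 10 fell and 2 rose in MOLM14, and 4 fell and 4 rose in OCI-AML2. PHF5A, a small SF3B subunit, changed by -1.28 ± 0.069 and -1.10 ± 0.065, and PUF60, a partner of U2AF2, by -1.68 ± 0.061 in MOLM14. Of 12 other tri-snRNP genes, 6 fell and 3 rose, and then 5 fell and 5 rose, with PPIH, a U4/U6 cyclophilin, at -1.51 ± 0.077 and -1.61 ± 0.059. Of 16 other hnRNP, PCBP or PTB genes, 10 fell and 3 rose, and 8 fell and 5 rose, with HNRNPAB at -1.25 ± 0.042 and -0.91 ± 0.048. Of 8 genes of the minor spliceosome, which removes a rare class of introns, 3 fell and 5 rose in MOLM14, and 1 fell and 3 rose in OCI-AML2 (4 fell and 3 rose under quantile normalization there). Among these SNRNP25 changed by -1.80 ± 0.064 and -1.37 ± 0.078, while ZRSR2, the minor spliceosome's relative of U2AF1, changed by 0.79 ± 0.092 and 1.11 ± 0.10.

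**Figure D5:**
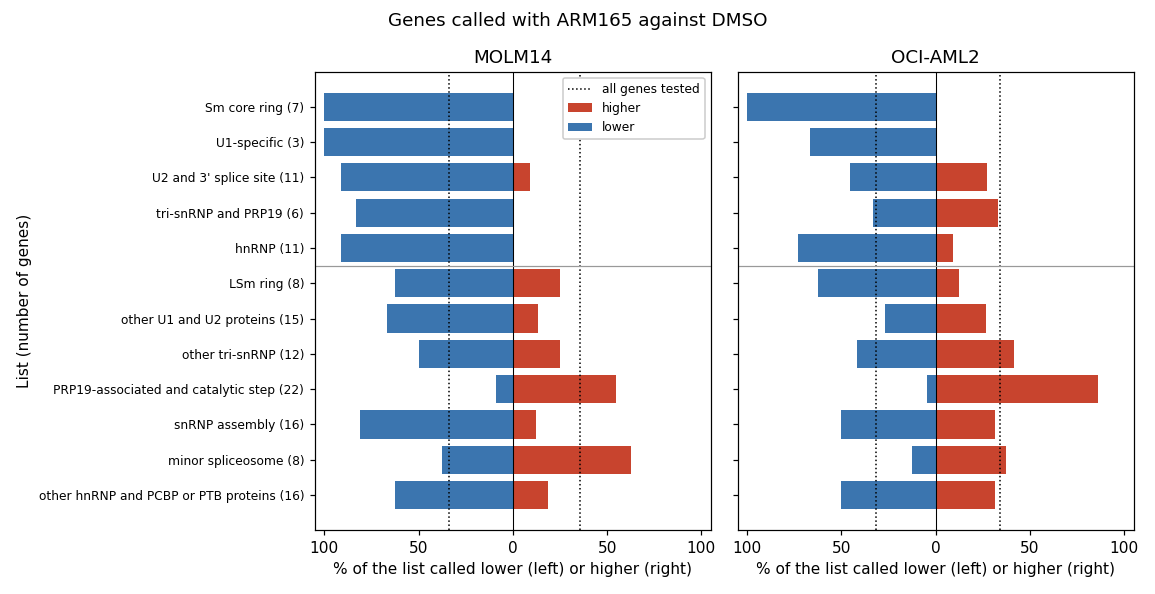
Share of each list called lower (blue, to the left) or higher (red, to the right) with ARM165 against DMSO, in percent of the list's genes (horizontal axis, numbers of genes in brackets), in MOLM14 (left) and OCI-AML2 (right), with dotted lines at the share of all genes tested. The 5 role groups of the 38 genes are above the grey line and the 7 other pathway lists below it, where the PRP19-associated and catalytic-step list stands out by 12 and 19 of 22 genes higher.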

How the data were processed

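RNA-seq of 24 libraries (2 lines, 3 treatments, 4 replicates) was analysed from the authors' deposited tables, 1 per line, with 35587 gene symbols and 12 libraries each, and 0 columns were left out. The submitters' processing notes name kallisto for the quantification, and per the labels' protocols, libraries were stranded and poly(A)-selected. The version, genome build, annotation and scaling are not given in the sources used here. The signal in the deposited tables is a normalized estimate of reads, and 15.1 to 15.8% of its values came within 0.01 of whole reads, so no count test was run. At 35.4 M to 59.0 M estimated reads a library, the standard error of an ARM165 log2 change had a median over all genes of 0.099 in MOLM14 and 0.12 in OCI-AML2.

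Groups follow the line and treatment in the labels. Values were taken as log2(value + 1), a line's genes were tested if 4 or more libraries reached 10 (all 38 members did in both), and limma 3.58.1 in R 4.3.3 was fitted with 1 mean per group over the 12 libraries of a line, a variance trend and empirical Bayes moderation. The difference between lines was a contrast of contrasts over 24 libraries, and tests used Benjamini-Hochberg adjusted p-values over all genes, with calls under 0.05. The fit was run on simulated counts with few genes changed, as many up as down, to check that the code recovers set changes. With ARM165 most genes were called, so that run does not test the fit in such a setting. Values in every library of the line concerned are given for the highest and lowest ARM165 change of each role group in each line, for members called with AZ2, and for the 4 smallest adjusted p of the line difference. SNRPB, SNRPF and U2AF1 were added after their values were seen. From the other pathway lists, up to 3 genes of the largest called change were eligible. The members and lists were chosen with earlier results of these data known. The main fit did not treat replicate numbers as pairs, and whether they are pairs is not settled here. Alternatives were other pseudocounts, filters, scalings (quantile, TMM), a replicate block and no variance trend. Others were copies and relatives summed in, only the groups compared, and each library left out. Sharing of 31-base words was counted over GENCODE 29 transcripts, and promoters are from RefSeq GRCh38.p14. Figures were drawn with matplotlib 3.10.9.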

Additional observations from a re-analysis of the deposited data

Results flagged for a closer look

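Of 90 groups of 4 libraries looked at for the named genes, 8 held a library far from the other 3 by Dixon's 95% critical value, which chance passes in about 1 of 20 independent groups. The groups here share the same 24 libraries, and no excess is read from the count. In OCI-AML2, SNRPD1 was lowest in ARM165 replicate 1 (3000.0 beside 3294 to 3308), SNRPE and SF3B4 were highest in AZ2 replicate 4 (19258 beside 17158 to 17506, and 5457 beside 4918 to 4947), and HNRNPA1 was lowest in AZ2 replicate 1 (84468 beside 90257 to 90995). SF3B1 in OCI-AML2 was highest in DMSO replicate 2 (6385 beside 5190 to 5362) and in ARM165 replicate 4 (9735 beside 8520 to 8696). In MOLM14, PRPF3 was highest in replicate 1 with DMSO (4280.4 beside 3958 to 3999) and with ARM165 (4288 beside 4045 to 4081). Libraries of both lines were the extreme of their group for 19 or more of the 38 members. In MOLM14, replicate 2 was the lowest for 25 with DMSO, 20 with AZ2 and 19 with ARM165, and ARM165 replicate 4 was the highest for 21. In OCI-AML2, DMSO replicate 2 was the highest for 23 and DMSO replicate 4 the lowest for 21, AZ2 replicate 4 the highest for 22 and AZ2 replicate 1 the lowest for 25, and ARM165 replicate 4 the highest for 20.

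The ARM165 change differed between the lines (OCI-AML2 minus MOLM14, limma interaction contrast) for 16 members. It was higher in OCI-AML2 by 1.11 for HNRNPU, 0.82 for PRPF3, 0.59 for SF3B3, 0.57 for SF3B4, 0.50 for SNRNP70, 0.48 for SF3B2, 0.46 for HNRNPF, 0.45 for U2AF2, 0.41 for SF3A2 and 0.40 for SNRPB. Smaller differences were 0.37 for SNRPD2, 0.33 for HNRNPM, 0.32 for SF3B1, 0.31 for SNRNP200 and 0.26 for EFTUD2, and SNRPF was lower in OCI-AML2, at -0.24.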

How the results depend on the processing

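The number of members called stayed within 34 to 36 in MOLM14 and 28 to 31 in OCI-AML2 for ARM165 against DMSO, within 34 to 35 and 29 to 32 for ARM165 against AZ2, and within 14 to 23 for the line difference, over all alternatives run, and was 0 for AZ2 in each of them. Leaving out 1 library gave 35 to 36, 28 to 30 and 14 to 20. The replicate numbers were not treated as a pairing in the main fit. Over 24 same-numbered pairs of libraries, correlations of deviations were -0.037 to 0.056. Their medians were 0.019 in MOLM14 and 0.011 in OCI-AML2, beside -0.0074 and -0.0050 over pairs of different numbers. Values this small over all genes cannot decide whether the numbers are a pairing. With a replicate block in limma, 36, 29 and 16 members were called. PRPF4 in OCI-AML2 (adjusted p = 0.0532) and EFTUD2 in the line difference (0.0703) were then not called. SNRPC in the line difference was called (0.0318). Under quantile normalization HNRNPH1 turned to 0.17 in MOLM14, to 0.040 in OCI-AML2 and to -0.13 in the line difference, and HNRNPA1 to -0.14 in the line difference. With TMM factors PRPF3 in MOLM14 turned to -0.015 and SF3A3 in the line difference to 0.0062. With copies and separate relatives summed in, U2AF1 in MOLM14 turned to 0.010 and SNRPB in the line difference to -0.30. Without OCI-AML2 DMSO replicate 2, SNRNP70 and HNRNPH1 in OCI-AML2 were -0.0100 and 0.0049, and SNRPD1 in the line difference was 0.028. Leaving out 1 library turned SF3A3 in the line difference to 0.0013 to 0.0067 (range over libraries -0.059 to 0.0067) and HNRNPH1 there to -0.014 to -0.013 (-0.014 to 0.089), while SNRPD1 there ranged from -0.10 to 0.028. In OCI-AML2, SNRNP70 ranged from -0.0100 to 0.087 and HNRNPH1 from -0.098 to 0.0049. None of these passed the threshold before or after, apart from U2AF1, whose call was lost, and SNRPB, which stayed called. Called members also changed sign under quantile normalization. In MOLM14 HNRNPK turned to 0.20 and stayed called, while HNRNPD (0.0021) and SNRNP200 (0.0084) lost the call. HNRNPK in the line difference turned to -0.20 and gained a call (limma, adjusted p = 0.000292). The causes were not tested. The sum with pseudogene copies and U2AF1L5 alone was chosen after seeing the data. Doses, the scaling and the origin of replicates are not stated, which limits every comparison, and estimated reads cannot separate near-identical copies.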
